A study of Homo sapiens with 8 samples.

Results

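Solute carrier (SLC) transporter genes were followed across RNA-seq profiles of OVISE, a cell line from a human clear cell carcinoma of the ovary. The members were selected on their measured level. They are the loci of the authors' table whose transcript accessions gave 1 gene symbol starting with SLC and a digit, with at least 1 FPKM (fragments scaled by transcript length and by sequencing depth) in 2 or more of 8 libraries. That rule kept 216 of 400 single-symbol SLC loci, in a table of 27757 loci of which 12112 met the same limit. Of the 216 members, 209 encode carriers and 7 are only named for one, 4 of them pseudogenes. The 4 groups held 2 libraries each. They were SYK-KO cells given 50 ng/ml of epidermal growth factor for 24 h (SYK-KO EGF), SYK-WT cells treated in the same way (SYK-WT EGF), untreated SYK-KO cells (SYK-KO) and untreated SYK-WT cells (SYK-WT). SYK is a non-receptor tyrosine kinase, and EGF activates the receptor kinase EGFR. Per the labels, the knockout was made with a Cas9 nickase, a pair of guides against SYK and puromycin, single-cell clones were isolated, and loss of the protein was checked by immunoblot. How many clones the SYK-KO libraries represent is not given, so the knockout and any difference between clones cannot be told apart. No label says that paired libraries were grown separately, so p-values measure the spread between libraries, which may be technical. In bulk RNA, fewer cells that express a gene and less RNA per cell cannot be told apart.

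Solute carriers are membrane proteins that move small molecules and ions without splitting ATP, either down a gradient or coupled to the gradient of another ion. Some act as exchangers, such as the cystine and glutamate antiporter of SLC7A11 with SLC3A2, and some as facilitators, such as the glucose transporter SLC2A1. In carcinoma cells they set the supply of amino acids, sugar and metal ions and the export of lactate, and growth factor receptors are known to regulate several of them.

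The guides show where the knockout was aimed, with the 3 bases after each guide, the PAM that Cas9 needs, in capitals. Both guides matched 5 of 5 annotated SYK transcripts, the first on the opposite strand to the transcript and the second on the same strand.
top strand-nicking guide: cggacagggcgaagccacccAGG
bottom strand-nicking guide: cacaccactacaccatcgagCGG
SYK RNA stood at 2.80 and 3.16 FPKM in SYK-KO EGF libraries against 3.88 and 3.62 FPKM in SYK-WT EGF libraries. Untreated, it was at 3.11 and 3.43 FPKM in SYK-KO libraries against 4.91 and 5.30 FPKM in SYK-WT libraries. The transcript was lower in the knockout libraries in both states and was present in all of them, and a level of RNA does not check a knockout made by changes within an exon.

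The relative depth of the libraries was at least 85.0% of that of SYK-WT replicate 1. Replicates differed by a median of 0.0669 to 0.0828 on the log2 scale in 3 groups and by 0.15 in the SYK-WT pair. The clear cell and epithelial markers PAX8, EPCAM and keratins were expressed in every library, while 0 of 13 haematopoietic, endothelial and fibroblast markers reached the 1 FPKM limit. Of the mesothelial markers, MSLN was at 0.262 and 0.184 FPKM in SYK-KO EGF libraries against 8.63 and 8.27 FPKM in SYK-WT EGF libraries. Without EGF its level was 0.162 and 0.123 FPKM in SYK-KO libraries against 5.68 and 7.62 FPKM in SYK-WT libraries. CALB2 was higher with EGF in both genotypes, and WT1 stayed under 0.5 FPKM. CDH1, the epithelial cadherin, was at 30.7 and 35.6 FPKM in SYK-KO EGF libraries against 61.9 and 61.4 FPKM in SYK-WT EGF libraries. The part of these differences in the results on carriers was not tested.

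Among the members, 186 were at or above 1 FPKM in all 8 libraries and 30 were not. Through 1 genotype alone, 9 members reached the limit, 4 through SYK-KO libraries (SLC18A3, SLC26A9, SLC30A3, SLC35F1) and 5 through SYK-WT libraries (SLC15A1, SLC1A6, SLC23A1, SLC52A3, SLC9A2). Through EGF libraries alone 2 members reached it (SLC22A31 and SLC26A9), and through untreated libraries alone 5 (SLC12A3, SLC23A1, SLC30A3, SLC8A1 and SLC9A2). These members had to differ between the groups concerned, so their values are given below as a description and without a p-value. They remain in the counts of called and held members. By the second-highest library, the members nearest the limit were SLC52A3 (1.01 FPKM), SLC12A3 (1.03 FPKM) and SLC30A3 (1.05 FPKM), and the nearest carriers outside it were SLC25A27 (0.993 FPKM), SLC6A12 (0.918 FPKM) and SLC4A8 (0.834 FPKM). Of the SLC loci outside the limit, 48 were at 0 in all libraries.

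Levels of the members, compared per transcript length as FPKM, spanned a wide range. The median over members of the mean FPKM was 8.46, against 9.26 for all loci tested, and 98 members averaged at least 10 FPKM, 21 at least 50 FPKM and 11 at least 100 FPKM. The 11 were the amino acid exchanger SLC7A5 and its partner SLC3A2, the glucose transporter SLC2A1, the zinc importers SLC39A1 and SLC39A4, the monocarboxylate carrier SLC16A5, the choline transporter-like SLC44A2, and the mitochondrial carriers SLC25A1, SLC25A3, SLC25A5 and SLC25A39. The summed level of all members was 5056 and 5016 FPKM in SYK-KO EGF libraries, 5048 and 5071 FPKM in SYK-WT EGF libraries, 5638 and 5541 FPKM in SYK-KO libraries, and 5301 and 5583 FPKM in SYK-WT libraries.

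Differences were tested with limma on log2(FPKM + 1) over all 12112 loci, two-sided, and are called where the Benjamini-Hochberg adjusted p is under 0.05. Fold changes and their standard errors (SE) are on that scale, which understates the change of members near or below 1 FPKM. In SYK-KO relative to SYK-WT cells with EGF, 46 members rose and 56 fell, 47.2% of the members, beside 43.6% of all loci tested that were called (21.1% rose, 22.5% fell). In the untreated comparison of the genotypes 40 rose and 49 fell, 41.2% beside 40.5% of all loci (20.3% rose, 20.2% fell). With EGF in SYK-WT cells 34 rose and 42 fell, 35.2% beside 26.7% of all loci (14.7% rose, 12.1% fell), and with EGF in SYK-KO cells 11 rose and 21 fell, 14.8% beside 11.8% of all loci (6.67% rose, 5.13% fell). The members' shares in the genotype comparisons were near the background, so the counts by themselves say nothing particular about solute carriers.

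Each fit was repeated 8 times, leaving out 1 library at a time, and the counts depended on single libraries. Of the called members, 46 of 102 kept their call in all 8 refits for SYK-KO against SYK-WT with EGF, 41 of 89 for the untreated comparison, 25 of 76 for EGF in SYK-WT cells and 6 of 32 for EGF in SYK-KO cells. By direction, 23 rose and 23 fell, 20 rose and 21 fell, 6 rose and 19 fell, and 4 rose and 2 fell, in the same order. For SYK-KO against SYK-WT with EGF, leaving out SYK-KO EGF replicate 1 or 2 gave 57 or 61 calls, and leaving out SYK-WT EGF replicate 1 or 2 gave 56 or 53. Untreated, 45 or 56 were called without SYK-KO replicate 1 or 2. For EGF in SYK-WT cells, 33 or 32 were called when SYK-WT EGF replicate 1 or 2 was dropped. For EGF in SYK-KO cells, dropping SYK-KO EGF replicate 1 or 2 gave 9 or 11, dropping SYK-KO replicate 1 or 2 gave 9 or 7, and dropping either SYK-WT replicate gave 68. Members described as held kept their call in all 8 refits. By the authors' deposited table, q-values were under 0.05 for 55 members in SYK-KO against SYK-WT with EGF, 51 untreated and 47 for EGF in SYK-WT cells, of which 53, 50 and 45 were also called here. Members with such q-values were 25.5%, 23.6% and 21.8% of all members in that order, beside 24.0%, 21.5% and 15.2% of all loci tested.

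**Figure D1:**
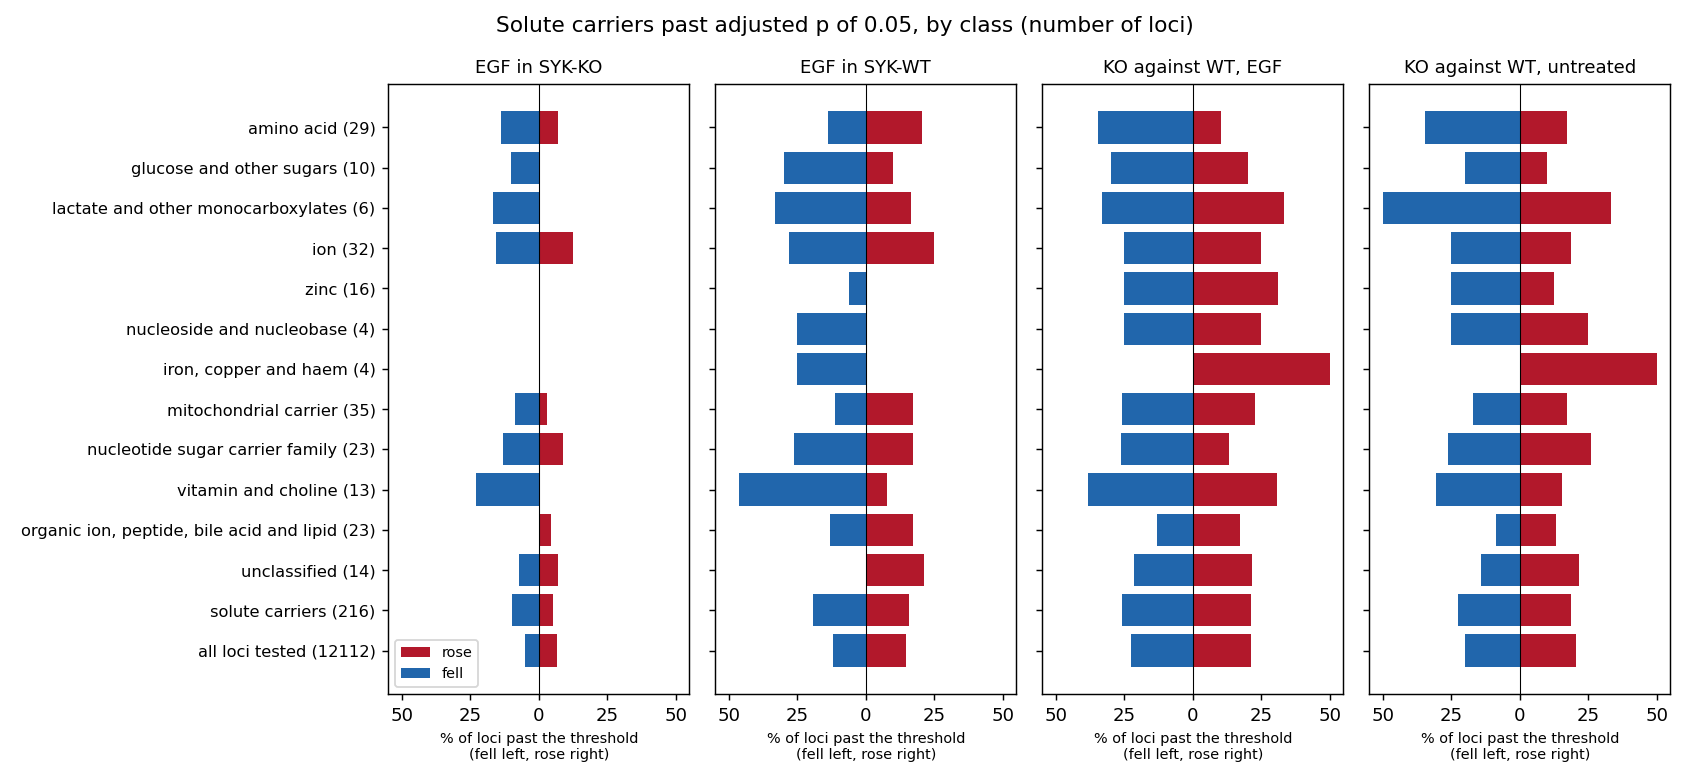
Share of loci past an adjusted p of 0.05 in each class of solute carrier, in all 216 members and in all 12112 loci tested, for the 4 comparisons of 2 groups; bars to the right give the share that rose and bars to the left the share that fell, in percent, with the number of loci in brackets. In the amino acid class 10 of 29 members, not all the same ones, fell in each genotype comparison, against 3 with EGF and 5 untreated that rose. Of all loci, 22.5% fell and 21.1% rose with EGF, and 20.2% fell and 20.3% rose untreated. No zinc carrier was called for EGF in SYK-KO cells.

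The amino acid class held 29 members. For EGF, its counts stand beside 11.8% and 26.7% of all loci called in SYK-KO and SYK-WT cells. With EGF 3 rose and 10 fell in SYK-KO against SYK-WT cells, with a median of -0.17 against -0.02 over all loci, and untreated 5 rose and 10 fell, with a median of -0.20 against -0.01. That was 13 and 15 of 29 called, beside 43.6% and 40.5% of all loci. Of these calls 2 rises and 5 falls held with EGF, and 2 rises and 4 falls held untreated, counting SLC1A6, which reached the 1 FPKM limit through SYK-WT libraries alone. EGF raised 2 and lowered 4 of the class in SYK-KO cells and raised 6 and lowered 4 in SYK-WT cells, with 1 and 3 calls held.

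The 3 acidic amino acid transporters that were expressed, which take up glutamate and aspartate with sodium, were all lower in SYK-KO cells. SLC1A6, best known from Purkinje cells of the cerebellum, was at 0.0712 and 0.169 FPKM in SYK-KO EGF libraries against 14.6 and 14.7 FPKM in SYK-WT EGF libraries. In untreated cells it stood at 0.0206 and 0.0405 FPKM in SYK-KO libraries against 12.35 and 9.25 FPKM in SYK-WT libraries. It was close to absent from all 4 knockout libraries and clearly present in all 4 wild-type ones, which is how it met the expression limit. The gene spans 15060845 to 15121455 on chromosome 19 (hg19). Its fold change was -3.81 ± 0.12 (SE) with EGF and -3.50 ± 0.12 untreated, the most negative of all members in both, and -6.10 and -6.37 with a pseudocount of 0.1 FPKM. In SYK-WT cells its change with EGF was 0.42 ± 0.12 (limma adjusted p = 0.0394), a call that stayed in only 1 of 8 refits, with a change of 0.23 without SYK-WT replicate 2.

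SLC1A1, the glutamate and cysteine carrier of epithelia and neurons, was at 3.54 and 4.83 FPKM in SYK-KO EGF libraries, 10.0 and 11.7 FPKM in SYK-WT EGF libraries, 8.56 and 8.13 FPKM in SYK-KO libraries and 22.3 and 18.9 FPKM in SYK-WT libraries. The 4 groups did not overlap, and SYK-KO cells with EGF were lowest. It fell in SYK-KO cells by 1.20 ± 0.13 with EGF (adjusted p = 0.000481) and by 1.21 ± 0.13 untreated (adjusted p = 0.000489), and with EGF by 0.87 ± 0.13 in SYK-WT cells (adjusted p = 0.00361), all held. EGF in SYK-KO cells gave -0.86 ± 0.13 (adjusted p = 0.00719), and this call ended without SYK-KO replicate 1 (0.0575) or 2 (0.0542). SLC1A3, the glutamate transporter typical of astrocytes, was at 14.8 and 15.8 FPKM in SYK-KO EGF libraries against 34.5 and 37.5 FPKM in SYK-WT EGF libraries. Its untreated level was 20.9 and 21.3 FPKM in SYK-KO libraries against 51.9 and 34.0 FPKM in SYK-WT libraries. All knockout libraries lay below all wild-type ones, and both falls held, -1.18 ± 0.16 with EGF (adjusted p = 0.00126) and -0.96 ± 0.16 untreated (adjusted p = 0.00319).

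Neutral amino acid carriers of the same family went in different directions. SLC1A4, which exchanges alanine, serine and cysteine, was at 3.05 and 2.52 FPKM in SYK-KO EGF libraries against 1.24 and 1.09 FPKM in SYK-WT EGF libraries. Untreated, it was at 2.30 and 2.17 FPKM in SYK-KO libraries against 0.816 and 0.713 FPKM in SYK-WT libraries. It rose in both states by 0.80 ± 0.096 (adjusted p = 0.000637) and 0.88 ± 0.096 (adjusted p = 0.000474), and by 1.44 untreated with a pseudocount of 0.1 FPKM. SLC1A5, the main glutamine carrier of many tumour cells, was at 57.4 and 53.1 FPKM in SYK-KO EGF libraries against 77.4 and 69.3 FPKM in SYK-WT EGF libraries. That difference was -0.40 ± 0.096 (adjusted p = 0.0122) and was not called without SYK-KO EGF replicate 2 (0.0789) or SYK-WT EGF replicate 1 (0.089).

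SLC7A11, which imports cystine in exchange for glutamate and so feeds glutathione synthesis, was at 4.52 and 4.51 FPKM in SYK-KO EGF libraries, 2.15 and 1.91 FPKM in SYK-WT EGF libraries, 3.61 and 3.65 FPKM in SYK-KO libraries and 1.42 and 1.08 FPKM in SYK-WT libraries. Knockout libraries were above wild-type libraries throughout, without overlap. It rose in SYK-KO cells by 0.87 ± 0.094 with EGF (adjusted p = 0.000417) and by 1.05 ± 0.094 untreated (adjusted p = 0.000187), both held. With EGF in SYK-WT cells it changed by 0.43 ± 0.094 (adjusted p = 0.0137), which ended without SYK-WT EGF replicate 1 (0.0974) and was 0.67 with a pseudocount of 0.1 FPKM. By the authors' deposited table its q-values were 0.000583 with EGF and 0.000583 untreated for the genotypes. SLC3A2, the heavy chain that carries SLC7A11 and SLC7A5 to the membrane, was at 362 and 341 FPKM in SYK-KO EGF libraries, 348 and 324 FPKM in SYK-WT EGF libraries, 450 and 428 FPKM in SYK-KO libraries and 366 and 377 FPKM in SYK-WT libraries. The light chain SLC7A5, which exchanges large neutral amino acids such as leucine, was the most abundant member, at 582 and 539 FPKM in SYK-KO EGF libraries, 576 and 541 FPKM in SYK-WT EGF libraries, 836 and 755 FPKM in SYK-KO libraries and 676 and 721 FPKM in SYK-WT libraries. Both chains were highest in untreated SYK-KO libraries. The change with EGF in SYK-KO cells was -0.50 ± 0.079 for SLC7A5 (adjusted p = 0.00719) and -0.32 ± 0.067 for SLC3A2 (adjusted p = 0.0207). SLC7A5 was also called for EGF in SYK-WT cells, at -0.322 (adjusted p = 0.0215). That call ended without SYK-WT EGF replicate 1 or 2. In SYK-KO cells the call of SLC7A5 ended without SYK-KO EGF replicate 2 or SYK-KO replicate 1, and that of SLC3A2 without any of the 4 libraries compared.

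SLC43A2, a facilitator of branched-chain amino acids, fell in SYK-KO cells, at 0.730 and 0.531 FPKM in SYK-KO EGF libraries against 1.64 and 1.61 FPKM in SYK-WT EGF libraries and at 1.12 and 1.06 FPKM in SYK-KO libraries against 2.72 and 2.70 FPKM in SYK-WT libraries. The falls of 0.69 ± 0.087 with EGF (adjusted p = 0.000834) and 0.83 ± 0.087 untreated (adjusted p = 0.000397) held, as did the fall of 0.50 ± 0.087 with EGF in SYK-WT cells (adjusted p = 0.00603). With a pseudocount of 0.1 FPKM the fall with EGF between the genotypes was 1.25. Of the sodium-coupled glutamine carriers, SLC38A1 was at 37.5 and 39.1 FPKM in SYK-KO EGF libraries against 51.8 and 50.3 FPKM in SYK-WT EGF libraries, a fall of 0.41 ± 0.081 that held (adjusted p = 0.00577). SLC17A7, which loads glutamate into synaptic vesicles, rose with EGF in both genotypes. It was at 9.40 and 9.38 FPKM in SYK-KO EGF libraries against 4.97 and 4.65 FPKM in SYK-KO libraries, and at 11.6 and 14.2 FPKM in SYK-WT EGF libraries against 5.63 and 6.95 FPKM in SYK-WT libraries. The rises of 0.84 ± 0.11 (adjusted p = 0.00404) and 0.93 ± 0.11 (adjusted p = 0.00136) held.

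Genes of glutathione and cysteine metabolism, which use the cystine and glutamate these carriers move, were followed as a list of 8. In SYK-KO against SYK-WT cells 1 rose and 1 fell with EGF, and 3 rose untreated. The counts of this and the other lists of non-carrier genes are to be read beside the 43.6% and 40.5% of all loci called in those comparisons, and the 11.8% and 26.7% called for EGF in SYK-KO and SYK-WT cells. GCLC, the catalytic subunit of the first step of glutathione synthesis, was at 6.92 and 6.89 FPKM in SYK-KO EGF libraries against 10.0 and 9.73 FPKM in SYK-WT EGF libraries, a fall of 0.46 ± 0.077 that held (adjusted p = 0.00267). Its untreated difference was -0.13 ± 0.077 and was not called (adjusted p = 0.202). CBS, which starts the synthesis of cysteine from homocysteine, was at 109 and 106 FPKM in SYK-KO libraries against 80.8 and 83.7 FPKM in SYK-WT libraries, a rise of 0.38 ± 0.06 that held (adjusted p = 0.00225). With EGF its rise was 0.18 ± 0.06 (adjusted p = 0.0406), and it was lost without any of the 4 libraries compared (up to 0.205). CHAC1, which breaks down glutathione, was at 13.2 and 11.2 FPKM in SYK-KO libraries against 5.92 and 3.31 FPKM in SYK-WT libraries, a rise of 1.27 ± 0.21 that held (adjusted p = 0.00251).

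**Figure D2:**
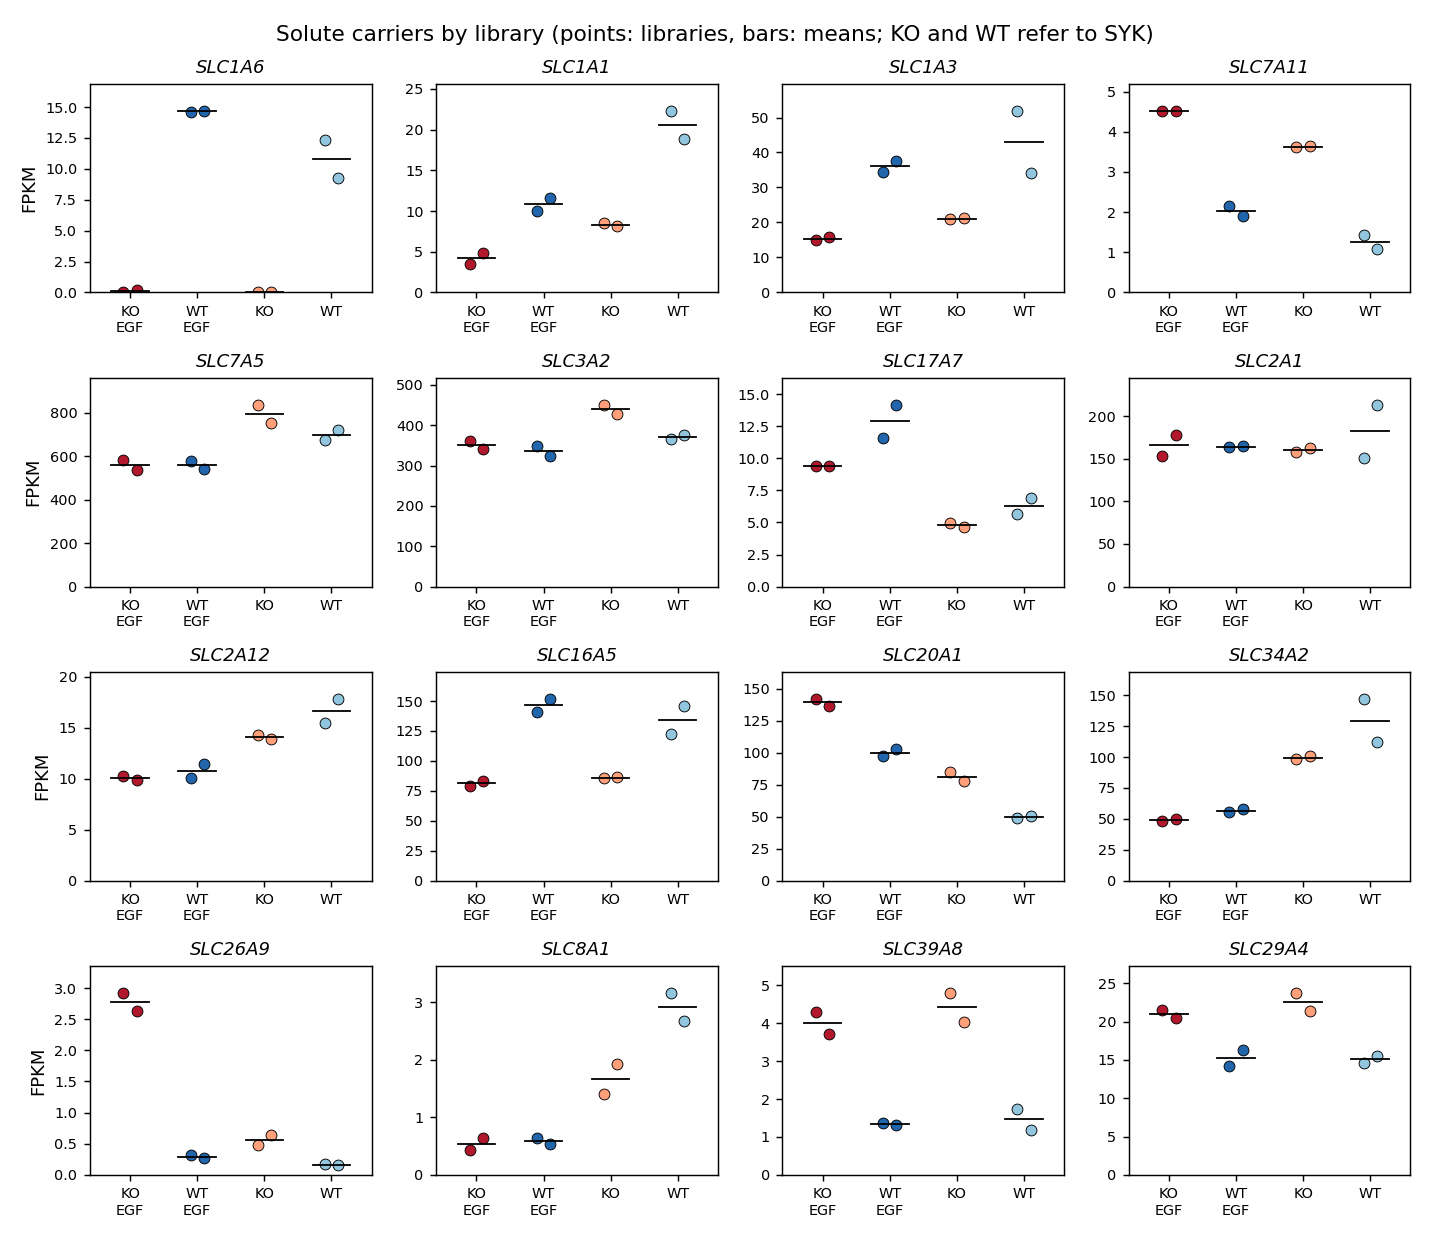
FPKM of 16 solute carriers in each library, with 2 libraries (points) and their mean (bar) per group, in the order SYK-KO EGF, SYK-WT EGF, SYK-KO and SYK-WT; each vertical axis is linear and starts at 0. SLC1A6 is near 0 in the 4 knockout libraries, SLC7A11 and SLC39A8 are higher in them, SLC20A1 is highest in SYK-KO EGF libraries at 142 and 137 FPKM, and SLC2A1 overlaps between the 2 groups of each comparison.

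The promoters of 4 members that moved in several comparisons were read from the RefSeq table (build GRCh38.p14) as the 250 bases before the start of the gene. Promoters were found for 178 of the 216 members. They were searched on both strands for the antioxidant response element core TGACNNNGC, the amino acid response element TGATGNAA, the AP-1 site TGANTCA, the E-box CACGTG and the metal response element core TGCNCNC. Any of these matches by letters is a description and not a binding site. The share of promoters with a match was 14.6% of members and 11.0% of all 27305 promoters for the antioxidant response element, 2.81% and 3.19% for the amino acid response element, 7.30% and 6.60% for the AP-1 site, 9.55% and 6.49% for the E-box, and 54.5% and 48.4% for the metal response element core, which is too common to be marked. The window of SLC1A6 lies at chr19:15010644-15010893 on the minus strand and is shown because its RNA was near 0 in every knockout library; none of the other 4 motifs is in it.
SLC1A6: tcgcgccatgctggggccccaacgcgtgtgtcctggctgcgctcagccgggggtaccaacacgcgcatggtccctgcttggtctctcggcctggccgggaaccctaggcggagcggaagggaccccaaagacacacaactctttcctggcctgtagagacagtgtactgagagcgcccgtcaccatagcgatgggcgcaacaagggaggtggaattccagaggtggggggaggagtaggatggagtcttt

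Sugar carriers were 10 members, whose counts stand beside 43.6% and 40.5% of all loci called between the genotypes with EGF and untreated. With EGF 2 rose and 3 fell in SYK-KO against SYK-WT cells, and untreated 1 rose and 2 fell, with 2 and 1 calls held. EGF lowered 1 in SYK-KO cells, which did not hold, beside 11.8% of all loci called. In SYK-WT cells EGF raised 1 and lowered 3, beside 26.7%. SLC2A1, the basal glucose transporter, was at 154 and 178 FPKM in SYK-KO EGF libraries, 164 and 165 FPKM in SYK-WT EGF libraries, 158 and 163 FPKM in SYK-KO libraries and 151 and 213 FPKM in SYK-WT libraries. The 2 groups of each comparison overlapped, the SYK-WT libraries lay farthest apart, and no comparison was called. SLC2A12, a glucose transporter of insulin-responsive tissues, was at 10.1 and 11.4 FPKM in SYK-WT EGF libraries against 15.4 and 17.8 FPKM in SYK-WT libraries, and at 10.3 and 9.91 FPKM in SYK-KO EGF libraries against 14.3 and 13.9 FPKM in SYK-KO libraries. It fell with EGF by 0.59 ± 0.089 in SYK-WT cells (adjusted p = 0.00329, held), and by 0.44 ± 0.089 in SYK-KO cells (adjusted p = 0.018), which was lost without any of the 4 libraries compared (up to 0.118). Its promoter window, chr6:134052625-134052874 on the minus strand, has 1 AP-1 site, in capitals.
SLC2A12: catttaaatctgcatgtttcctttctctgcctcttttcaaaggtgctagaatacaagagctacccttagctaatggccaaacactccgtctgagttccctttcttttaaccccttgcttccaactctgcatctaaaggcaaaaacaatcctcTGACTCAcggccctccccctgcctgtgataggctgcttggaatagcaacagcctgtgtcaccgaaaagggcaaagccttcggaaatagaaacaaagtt
SLC45A3, a sugar carrier by family, was at 4.55 and 4.66 FPKM in SYK-KO EGF libraries against 8.97 and 9.22 FPKM in SYK-WT EGF libraries. Without EGF its level was 5.17 and 4.83 FPKM in SYK-KO libraries against 6.76 and 6.34 FPKM in SYK-WT libraries. It was lower in the knockout libraries in both states, and the groups did not overlap between genotypes. The fall with EGF of 0.85 ± 0.071 (adjusted p = 0.000143) and the rise with EGF in SYK-WT cells of 0.42 ± 0.071 (adjusted p = 0.00536) held, and the untreated difference of -0.33 ± 0.071 (adjusted p = 0.00831) ended without SYK-KO replicate 2 (0.07). SLC2A8, an intracellular sugar transporter, rose in SYK-KO cells with EGF by 0.66 ± 0.13 (adjusted p = 0.00608, held), at 6.70 and 7.67 FPKM in SYK-KO EGF libraries against 4.12 and 4.21 FPKM in SYK-WT EGF libraries.

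Monocarboxylate carriers, 6 members, include the exporters of lactate. Their counts stand beside 43.6% and 40.5% of all loci called between the genotypes with EGF and untreated. In SYK-KO relative to SYK-WT cells 2 rose and 2 fell with EGF, 2 held, and 2 rose and 3 fell untreated, 3 held. EGF lowered 1 in SYK-KO cells, beside 11.8% of all loci called. In SYK-WT cells EGF raised 1 and lowered 2, beside 26.7%. The fall in SYK-KO cells and the rise in SYK-WT cells did not hold. SLC16A1, which moves lactate in either direction, was at 17.8 and 16.2 FPKM in SYK-KO EGF libraries, 19.9 and 20.5 FPKM in SYK-WT EGF libraries, 18.3 and 19.3 FPKM in SYK-KO libraries and 20.4 and 17.1 FPKM in SYK-WT libraries, and was called in no comparison. SLC16A3, the lactate exporter of glycolytic cells, was at 72.4 and 71.0 FPKM in SYK-KO EGF libraries, 82.3 and 87.6 FPKM in SYK-WT EGF libraries, 60.9 and 57.3 FPKM in SYK-KO libraries and 71.4 and 95.1 FPKM in SYK-WT libraries. The untreated difference of -0.47 ± 0.12 in SLC16A3 (adjusted p = 0.0165) ended without SYK-KO replicate 1 (0.0592) or 2 (0.0898) and was -0.27 without SYK-WT replicate 2. The larger changes were in members that are not classical lactate carriers. SLC16A5 was at 79.4 and 83.0 FPKM in SYK-KO EGF libraries against 141 and 152 FPKM in SYK-WT EGF libraries. In untreated cells it stood at 85.9 and 86.2 FPKM in SYK-KO libraries against 122 and 146 FPKM in SYK-WT libraries. It fell by 0.84 ± 0.088 with EGF (adjusted p = 0.000364) and by 0.63 ± 0.088 untreated (adjusted p = 0.00134), both held. SLC16A9 fell by 0.53 ± 0.09 with EGF (adjusted p = 0.00277) and by 0.98 ± 0.09 untreated (adjusted p = 0.000203), both held, at 0.963 and 0.920 FPKM in SYK-KO EGF libraries against 1.79 and 1.83 FPKM in SYK-WT EGF libraries and at 1.24 and 1.02 FPKM in SYK-KO libraries against 3.39 and 3.01 FPKM in SYK-WT libraries. With a pseudocount of 0.1 FPKM its fall with EGF was 0.88.

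The 3 chaperones that bring monocarboxylate carriers to the membrane were called in both genotype comparisons, and all 6 calls held. BSG, the partner of SLC16A1 and SLC16A3, was at 296 and 296 FPKM in SYK-KO EGF libraries against 223 and 224 FPKM in SYK-WT EGF libraries and rose by 0.40 ± 0.074 (adjusted p = 0.00393), and by 0.46 ± 0.074 untreated (adjusted p = 0.00241). EMB rose by 0.63 ± 0.068 with EGF (adjusted p = 0.0004) and by 0.77 ± 0.068 untreated (adjusted p = 0.000172), while NPTN fell by 0.43 ± 0.071 (adjusted p = 0.0026) and by 0.53 ± 0.071 (adjusted p = 0.00114).

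Ion carriers, 32 members and the largest of the 6 substrate classes, gave the most EGF calls of them. Of all loci, 11.8% and 26.7% were called for EGF in SYK-KO and SYK-WT cells. Between the genotypes 43.6% were called with EGF and 40.5% untreated. EGF raised 4 and lowered 5 in SYK-KO cells, 4 of these 9 held, and raised 8 and lowered 9 in SYK-WT cells, 7 of 17 held. In SYK-KO against SYK-WT cells 8 rose and 8 fell with EGF, 5 held, and 6 rose and 8 fell untreated, 4 held. The EGF counts include SLC26A9, SLC8A1, SLC12A3 and SLC9A2, which reached the 1 FPKM limit through EGF or untreated libraries alone. Of these, SLC26A9 is among the calls held in SYK-KO cells and SLC8A1 among those held in SYK-WT cells. The genotype counts include held calls of SLC26A9 and SLC9A2, which reached the limit through 1 genotype alone. The class median was at most 0.09 from 0 in each of the 4 comparisons.

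Phosphate carriers moved in opposite directions. SLC20A1, which imports phosphate with sodium and is a retrovirus receptor, was at 142 and 137 FPKM in SYK-KO EGF libraries, 97.1 and 103 FPKM in SYK-WT EGF libraries, 84.8 and 77.9 FPKM in SYK-KO libraries and 49.2 and 50.9 FPKM in SYK-WT libraries. The 4 groups did not overlap. It rose in all 4 comparisons and each call held, by 0.77 ± 0.067 with EGF in SYK-KO cells (adjusted p = 0.000653), by 0.98 ± 0.067 with EGF in SYK-WT cells (adjusted p = 0.000132), and in SYK-KO cells by 0.48 ± 0.067 with EGF (adjusted p = 0.00134) and by 0.69 ± 0.067 untreated (adjusted p = 0.000274). SLC34A2, the phosphate importer of lung and gut epithelium and an antigen of ovarian carcinoma, was at 48.5 and 50.1 FPKM in SYK-KO EGF libraries against 98.3 and 101 FPKM in SYK-KO libraries, and at 55.6 and 57.9 FPKM in SYK-WT EGF libraries against 147 and 112 FPKM in SYK-WT libraries. Every EGF library was below every untreated library, and the falls of 1.0 ± 0.11 (adjusted p = 0.002) and 1.16 ± 0.11 (adjusted p = 0.000531) held. SLC20A2, the second importer of its family, was at 39.3 and 38.0 FPKM in SYK-KO EGF libraries, 33.0 and 36.1 FPKM in SYK-WT EGF libraries, 37.8 and 39.8 FPKM in SYK-KO libraries and 26.0 and 20.5 FPKM in SYK-WT libraries. It rose in untreated SYK-KO cells by 0.72 ± 0.11 (adjusted p = 0.00171, held) and with EGF in SYK-WT cells by 0.56 ± 0.11 (adjusted p = 0.00842), which was not called when SYK-WT EGF replicate 2 was left out (0.0679).

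Sulfate and chloride carriers of the SLC26 family differed from each other. SLC26A1, a sulfate exchanger, was at 0.997 and 1.04 FPKM in SYK-KO EGF libraries, 1.43 and 1.58 FPKM in SYK-WT EGF libraries, 2.12 and 2.10 FPKM in SYK-KO libraries and 3.33 and 3.02 FPKM in SYK-WT libraries, with no overlap between groups. It fell with EGF by 0.62 ± 0.081 in SYK-KO cells (adjusted p = 0.00338) and by 0.73 ± 0.081 in SYK-WT cells (adjusted p = 0.000908), and by 0.42 ± 0.081 in untreated SYK-KO cells (adjusted p = 0.00525), all held, and the first of these was 0.98 with a pseudocount of 0.1 FPKM. SLC26A9, an epithelial chloride transporter, was at 2.92 and 2.64 FPKM in SYK-KO EGF libraries, 0.314 and 0.262 FPKM in SYK-WT EGF libraries, 0.477 and 0.639 FPKM in SYK-KO libraries and 0.171 and 0.152 FPKM in SYK-WT libraries. It was the single member that reached 1 FPKM in only SYK-KO EGF libraries. Its fold change was 1.28 ± 0.093 for EGF in SYK-KO cells and 1.55 ± 0.093 for the genotypes with EGF, the highest of all members in both, or 2.14 and 2.89 with a pseudocount of 0.1 FPKM. SLC26A2, a sulfate carrier of cartilage and other tissues, was at 39.4 and 40.9 FPKM in SYK-KO EGF libraries, 28.6 and 28.4 FPKM in SYK-WT EGF libraries, 39.7 and 43.2 FPKM in SYK-KO libraries and 36.9 and 41.4 FPKM in SYK-WT libraries. It was low in SYK-WT EGF libraries, with a fall of 0.44 ± 0.075 with EGF in SYK-WT cells (adjusted p = 0.00546) and a rise of 0.48 ± 0.075 in SYK-KO cells with EGF (adjusted p = 0.00213), both held.

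The promoter windows of SLC20A1 and SLC26A1, members that were called in all 4 comparisons, are at chr2:112645689-112645938 on the plus strand and chr4:993405-993654 on the minus strand. Capitals mark matches to the motifs above, in SLC20A1 an E-box followed by 2 antioxidant response element cores on the reverse strand, and in SLC26A1 an AP-1 site that overlaps an antioxidant response element core.
SLC20A1: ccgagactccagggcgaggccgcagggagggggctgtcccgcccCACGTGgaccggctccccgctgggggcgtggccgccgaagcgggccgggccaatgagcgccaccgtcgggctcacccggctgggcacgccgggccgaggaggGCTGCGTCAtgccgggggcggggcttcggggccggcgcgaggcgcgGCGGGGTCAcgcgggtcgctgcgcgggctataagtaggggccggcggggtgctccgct
SLC26A1: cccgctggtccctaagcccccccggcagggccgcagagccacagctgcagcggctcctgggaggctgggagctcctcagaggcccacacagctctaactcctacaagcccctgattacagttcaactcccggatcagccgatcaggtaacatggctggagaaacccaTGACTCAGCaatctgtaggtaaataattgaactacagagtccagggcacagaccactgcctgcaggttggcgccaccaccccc

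Among other ion carriers, SLC8A1, the plasma membrane exchanger of sodium and calcium, was at 0.428 and 0.631 FPKM in SYK-KO EGF libraries against 1.41 and 1.92 FPKM in SYK-KO libraries, and at 0.644 and 0.526 FPKM in SYK-WT EGF libraries against 3.15 and 2.67 FPKM in SYK-WT libraries. Only untreated libraries reached 1 FPKM, and the fold changes were -0.80 ± 0.13 and -1.3 ± 0.13, or -1.49 and -2.14 with a pseudocount of 0.1 FPKM. SLC4A11, which the cornea needs, fell with EGF in SYK-WT cells by 1.14 ± 0.15 (adjusted p = 0.00189, held), at 1.89 and 2.05 FPKM in SYK-WT EGF libraries against 4.73 and 6.43 FPKM in SYK-WT libraries. SLC12A7, a potassium and chloride exporter, was at 32.9 and 36.2 FPKM in SYK-KO EGF libraries against 49.3 and 56.6 FPKM in SYK-WT EGF libraries and fell by 0.60 ± 0.10 (adjusted p = 0.00321, held). SLC8B1, the sodium and calcium exchanger of mitochondria, rose in SYK-KO cells with EGF by 0.44 ± 0.082 (adjusted p = 0.00432, held).

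The sodium pump, which sets the gradient that many of these carriers use, and kinases that regulate ion carriers were followed as 2 lists. FXYD5, a regulatory subunit, was at 214 and 208 FPKM in SYK-KO EGF libraries, 158 and 165 FPKM in SYK-WT EGF libraries, 165 and 141 FPKM in SYK-KO libraries and 103 and 82.6 FPKM in SYK-WT libraries. It rose in untreated SYK-KO cells by 0.72 ± 0.11 (adjusted p = 0.00209) and with EGF in SYK-WT cells by 0.80 ± 0.11 (adjusted p = 0.00228), both held. Of 10 kinases and ubiquitin ligases, 4 rose in SYK-KO against SYK-WT cells with EGF, counting NEDD4, which reached the limit through SYK-KO libraries alone, and 1 rose and 1 fell untreated. SGK1, a kinase that promotes sodium transport, rose by 1.0 ± 0.17 with EGF (adjusted p = 0.00267) and by 0.98 ± 0.17 untreated (adjusted p = 0.00312), both held.

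Zinc carriers were 16 members, whose counts stand beside 43.6% and 40.5% of all loci called between the genotypes and 26.7% and 11.8% called for EGF in SYK-WT and SYK-KO cells. In SYK-KO relative to SYK-WT cells 5 rose and 4 fell with EGF, 4 held, and 2 rose and 4 fell untreated, 2 held, while EGF lowered 1 in SYK-WT cells, which did not hold, and limma called 0 in SYK-KO cells, where 2 had an unadjusted p under 0.05. The member lowered by EGF was SLC30A3, which is also among the rises with EGF and reached the limit through untreated SYK-KO libraries alone. SLC39 proteins bring zinc into the cytosol and SLC30 proteins remove it. SLC39A8, which also imports manganese and cadmium, was at 4.29 and 3.72 FPKM in SYK-KO EGF libraries against 1.37 and 1.3 FPKM in SYK-WT EGF libraries. Its untreated level was 4.80 and 4.05 FPKM in SYK-KO libraries against 1.74 and 1.19 FPKM in SYK-WT libraries. It rose by 1.10 ± 0.13 with EGF (adjusted p = 0.000538) and by 1.14 ± 0.13 untreated (adjusted p = 0.000473), both held. SLC39A10, an importer of the plasma membrane, was at 37.5 and 37.0 FPKM in SYK-KO EGF libraries against 65.7 and 63.7 FPKM in SYK-WT EGF libraries. Untreated, it was at 47.6 and 50.4 FPKM in SYK-KO libraries against 101 and 68.4 FPKM in SYK-WT libraries. It fell by 0.78 ± 0.15 with EGF (adjusted p = 0.00533) and by 0.75 ± 0.15 untreated (adjusted p = 0.00663), both held, the second at 0.47 without SYK-WT replicate 1. SLC39A4, the importer of the gut, was at 180 and 183 FPKM in SYK-KO EGF libraries against 103 and 109 FPKM in SYK-WT EGF libraries. Without EGF its level was 220 and 224 FPKM in SYK-KO libraries against 114 and 196 FPKM in SYK-WT libraries. The difference with EGF was 0.77 ± 0.20 (adjusted p = 0.0175) and ended without any of the 4 libraries compared (up to 0.0872). Of the exporters, SLC30A1 of the plasma membrane rose by 0.51 ± 0.10 (adjusted p = 0.00572) and SLC30A5 of the secretory pathway by 0.36 ± 0.062 (adjusted p = 0.00315) in SYK-KO cells with EGF, both held. SLC30A6 and SLC30A9 of the same family went the other way and fell in SYK-KO cells with EGF and untreated, and these calls did not hold. SLC39A1, the most abundant importer after SLC39A4, was between 105 and 140 FPKM in all libraries and was called in no comparison.

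Metallothioneins, which bind zinc and copper, and their activator MTF1 gave 4 tested genes of 11 listed. In SYK-KO relative to SYK-WT cells 2 rose and 1 fell with EGF, and 3 rose and 1 fell untreated, while EGF raised 1 in SYK-KO cells and 3 in SYK-WT cells. MT1X was at 44.9 and 49.8 FPKM in SYK-KO EGF libraries, 19.5 and 18.5 FPKM in SYK-WT EGF libraries, 16.3 and 17.3 FPKM in SYK-KO libraries and 4.86 and 7.76 FPKM in SYK-WT libraries. It rose in all 4 comparisons and all held, by 1.44 ± 0.16 with EGF in SYK-KO cells (adjusted p = 0.002), by 1.48 ± 0.16 with EGF in SYK-WT cells (adjusted p = 0.000902), and between the genotypes by 1.27 ± 0.16 with EGF (adjusted p = 0.000892) and by 1.31 ± 0.16 untreated (adjusted p = 0.000825). MTF1 fell in SYK-KO cells by 0.62 ± 0.091 with EGF (adjusted p = 0.00156) and by 0.56 ± 0.091 untreated (adjusted p = 0.0026), both held. Metallothionein genes are near-identical copies of each other, and how the authors' tools split shared reads between them is not given, so their levels are uncertain.

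Nucleoside carriers were 4 members of the equilibrative family. SLC29A1, the main adenosine carrier, was at 13.5 and 14.8 FPKM in SYK-KO EGF libraries, 12.7 and 12.0 FPKM in SYK-WT EGF libraries, 11.7 and 13.1 FPKM in SYK-KO libraries and 8.86 and 11.0 FPKM in SYK-WT libraries, and was called in no comparison. SLC29A4, which carries monoamines as well as adenosine, was at 21.6 and 20.5 FPKM in SYK-KO EGF libraries against 14.2 and 16.3 FPKM in SYK-WT EGF libraries. In untreated cells it stood at 23.7 and 21.4 FPKM in SYK-KO libraries against 14.7 and 15.5 FPKM in SYK-WT libraries. It rose by 0.44 ± 0.086 with EGF (adjusted p = 0.00518) and by 0.55 ± 0.086 untreated (adjusted p = 0.00221), both held. SLC29A2 was at 6.47 and 6.65 FPKM in SYK-KO EGF libraries against 8.64 and 8.71 FPKM in SYK-WT EGF libraries, and its difference of -0.36 ± 0.095 (adjusted p = 0.0184) ended without any of the 4 libraries compared (up to 0.0896). Of 9 genes of nucleoside salvage and breakdown, 4 rose and 1 fell in SYK-KO against SYK-WT cells in either state, 3 rose with EGF in SYK-KO cells, and 4 rose and 1 fell with EGF in SYK-WT cells. The 1 that fell between the genotypes was CDA, which reached the limit through SYK-WT libraries alone. UPP1, which splits uridine, was at 131 and 128 FPKM in SYK-KO EGF libraries, 33.0 and 29.4 FPKM in SYK-WT EGF libraries, 53.5 and 52.3 FPKM in SYK-KO libraries and 9.07 and 11.1 FPKM in SYK-WT libraries. It rose in all 4 comparisons, each held, by 2.02 ± 0.096 with EGF (adjusted p = 1.01e-05) and 2.29 ± 0.096 untreated (adjusted p = 7.18e-06) in SYK-KO cells, and with EGF by 1.28 ± 0.096 in SYK-KO cells (adjusted p = 0.000405) and 1.54 ± 0.096 in SYK-WT cells (adjusted p = 9.45e-05). CDA, which deaminates cytidine, was at 0.304 and 0.358 FPKM in SYK-KO EGF libraries against 3.35 and 3.59 FPKM in SYK-WT EGF libraries, and at 0.737 and 0.512 FPKM in SYK-KO libraries against 2.43 and 3.35 FPKM in SYK-WT libraries. The differences were -1.75 ± 0.13 with EGF and -1.25 ± 0.13 untreated, or -3.05 and -2.05 with a pseudocount of 0.1 FPKM.

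Outside these substrate classes, mitochondrial carriers were the largest class, with 35 members. Their counts stand beside 43.6% and 40.5% of all loci called between the genotypes with EGF and untreated. In SYK-KO against SYK-WT cells 8 rose and 9 fell with EGF, 10 held, and 6 rose and 6 fell untreated, 4 held. SLC25A37, which imports iron into mitochondria, was at 3.90 and 3.66 FPKM in SYK-KO EGF libraries against 10.4 and 9.49 FPKM in SYK-WT EGF libraries. Its untreated level was 3.75 and 3.93 FPKM in SYK-KO libraries against 9.60 and 9.46 FPKM in SYK-WT libraries. It fell by 1.19 ± 0.074 with EGF (adjusted p = 3.66e-05) and by 1.12 ± 0.074 untreated (adjusted p = 4.67e-05), both held. It was called for EGF in neither genotype. SLC25A28, its paralogue with the same substrate, rose in these comparisons by 0.41 ± 0.073 (adjusted p = 0.00353) and 0.55 ± 0.073 (adjusted p = 0.00104), both held, at 14.2 and 13.4 FPKM in SYK-KO EGF libraries against 10.6 and 9.78 FPKM in SYK-WT EGF libraries. The ADP and ATP exchanger SLC25A5, at 249 and 249 FPKM in SYK-KO EGF libraries against 207 and 193 FPKM in SYK-WT EGF libraries, rose by 0.32 ± 0.059 (adjusted p = 0.00426, held). The basic amino acid carrier SLC25A29 was at 29.1 and 29.2 FPKM in SYK-KO EGF libraries, 20.2 and 18.2 FPKM in SYK-WT EGF libraries, 33.3 and 33.3 FPKM in SYK-KO libraries and 33.7 and 48.9 FPKM in SYK-WT libraries, and fell with EGF in SYK-WT cells by 1.04 ± 0.15 (adjusted p = 0.00246, held).

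Further members with large differences had varied substrates. SLC18B1, a vesicular polyamine transporter, was at 12.7 and 11.4 FPKM in SYK-KO EGF libraries against 36.1 and 35.3 FPKM in SYK-WT EGF libraries. Untreated, it was at 15.4 and 16.9 FPKM in SYK-KO libraries against 46.3 and 31.6 FPKM in SYK-WT libraries. It fell by 1.49 ± 0.15 with EGF (adjusted p = 0.000353) and by 1.19 ± 0.15 untreated (adjusted p = 0.000973), both held. SLC10A2, the sodium-coupled bile acid importer, was at 3.18 and 3.96 FPKM in SYK-KO EGF libraries, 1.79 and 1.48 FPKM in SYK-WT EGF libraries, 3.63 and 3.92 FPKM in SYK-KO libraries and 3.64 and 5.02 FPKM in SYK-WT libraries. It was lowest in SYK-WT EGF libraries, with a fall of 1.01 ± 0.14 with EGF in SYK-WT cells (adjusted p = 0.00232) and a rise of 0.79 ± 0.14 in SYK-KO cells with EGF (adjusted p = 0.00356), both held. SLC48A1, a haem transporter, rose in SYK-KO cells by 0.62 ± 0.087 with EGF (adjusted p = 0.00133) and by 0.68 ± 0.087 untreated (adjusted p = 0.000946), both held.

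Vitamin and choline carriers were 13 members, whose counts stand beside 43.6% and 40.5% of all loci called between the genotypes with EGF and untreated. The falls and the held calls include SLC23A1 and SLC52A3 in both comparisons. These members reached the 1 FPKM limit through SYK-WT libraries alone. In SYK-KO relative to SYK-WT cells 4 rose and 5 fell with EGF, 4 held, and 2 rose and 4 fell untreated, 5 held. EGF raised 0 and lowered 3 in SYK-KO cells (median -0.17), beside 11.8% of all loci called. In SYK-WT cells EGF raised 1 and lowered 6 (median -0.27), beside 26.7%. Over all loci the medians were 0.00135 and 0.00769. Of these EGF calls only that of SLC23A1 held, in SYK-WT cells, and it reached the limit through untreated SYK-WT libraries alone. SLC44A2, the most abundant of the class, was at 229 and 225 FPKM in SYK-KO EGF libraries, 164 and 174 FPKM in SYK-WT EGF libraries, 344 and 348 FPKM in SYK-KO libraries and 209 and 270 FPKM in SYK-WT libraries. Its rise of 0.54 ± 0.11 in untreated SYK-KO cells held (adjusted p = 0.00632), at 0.36 without SYK-WT replicate 1, and its change with EGF was -0.61 ± 0.11 in SYK-KO cells (adjusted p = 0.0117), which ended without any of the 4 libraries compared (up to 0.0928). SLC52A2, a riboflavin transporter, fell in SYK-KO cells by 0.40 ± 0.063 with EGF (adjusted p = 0.0023) and by 0.34 ± 0.063 untreated (adjusted p = 0.00477), both held. SLC23A1, the epithelial vitamin C importer, was at 0.111 and 0.0984 FPKM in SYK-KO EGF libraries against 0.632 and 0.753 FPKM in SYK-WT EGF libraries. Without EGF its level was 0.400 and 0.408 FPKM in SYK-KO libraries against 1.89 and 1.44 FPKM in SYK-WT libraries. Each group was apart from the others, and by the way it met the expression limit this is a description. SLC35F1, of unknown substrate, was at 1.42 and 1.05 FPKM in SYK-KO EGF libraries against 0.163 and 0.145 FPKM in SYK-WT EGF libraries. In untreated cells it stood at 1.43 and 1.47 FPKM in SYK-KO libraries against 0.103 and 0.120 FPKM in SYK-WT libraries. SLC1A6 was thus above 1 FPKM in wild-type libraries alone and SLC35F1 in knockout libraries alone.

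The genotype comparisons with and without EGF share no library and could be set side by side. In both, 30 members rose and 37 fell, 0 were called in opposite directions, and the 67 shared calls were 65.7% of the calls with EGF and 75.3% of those without. Over all loci tested those shares were 71.1% and 76.6%. Of all 216 members, 191 (88.4%) had the same sign, beside 84.2% of all loci. The 2 EGF comparisons also share no library. There 10 members rose in both genotypes and 19 fell in both, 0 were called in opposite directions, the 29 were 90.6% of the calls in SYK-KO cells and 38.2% of those in SYK-WT cells, and 174 members (80.6%) had the same sign. Over all loci the shares were 84.7% and 37.4%, with 76.9% of the same sign, so these overlaps say nothing particular about solute carriers. In all 4 comparisons 13 members were called, among them SLC1A1, SLC20A1, SLC26A1 and SLC43A2, and 67 were called in none, among them SLC2A1, SLC16A1, SLC29A1 and SLC39A1.

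**Figure D3:**
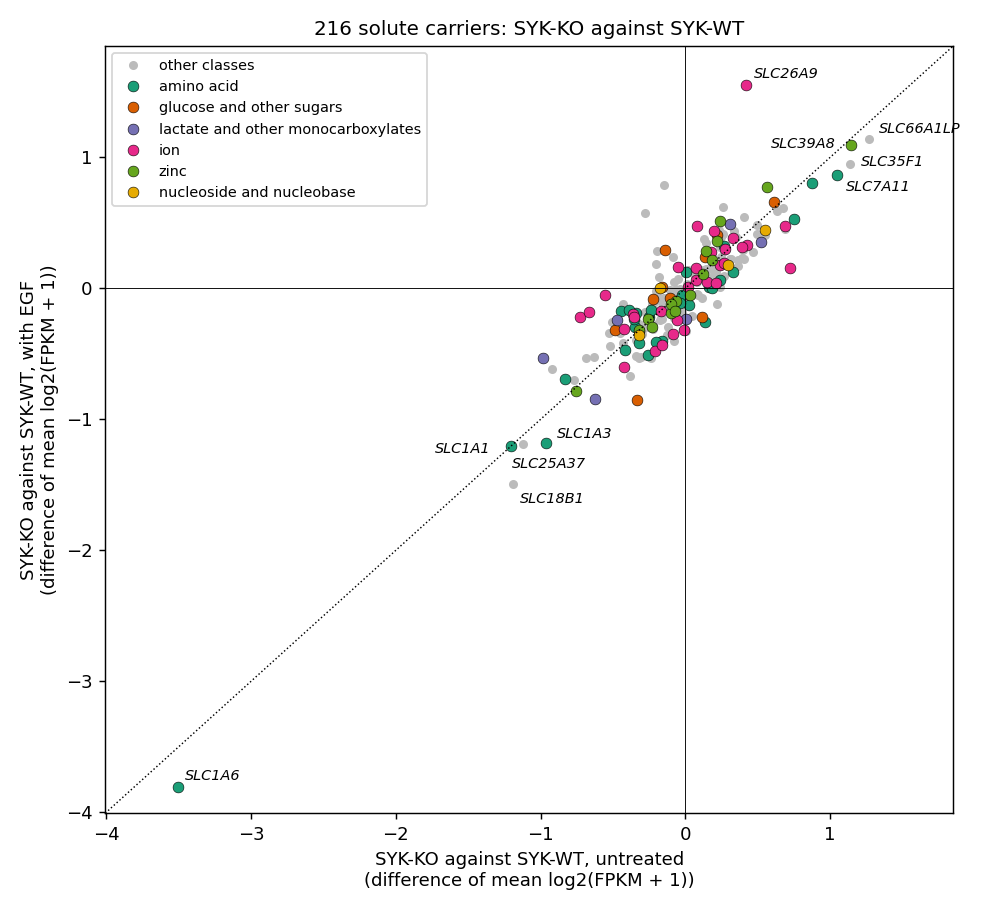
Difference between SYK-KO and SYK-WT cells with EGF (vertical axis) against the difference in untreated cells (horizontal axis) for the 216 members, as differences of mean log2(FPKM + 1), coloured by substrate class, with the line of equal differences dotted. SLC1A6 lies alone at the lower left at -3.50 and -3.81, and SLC26A9 lies above the line at 0.42 untreated and 1.55 with EGF.

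**Figure D4:**
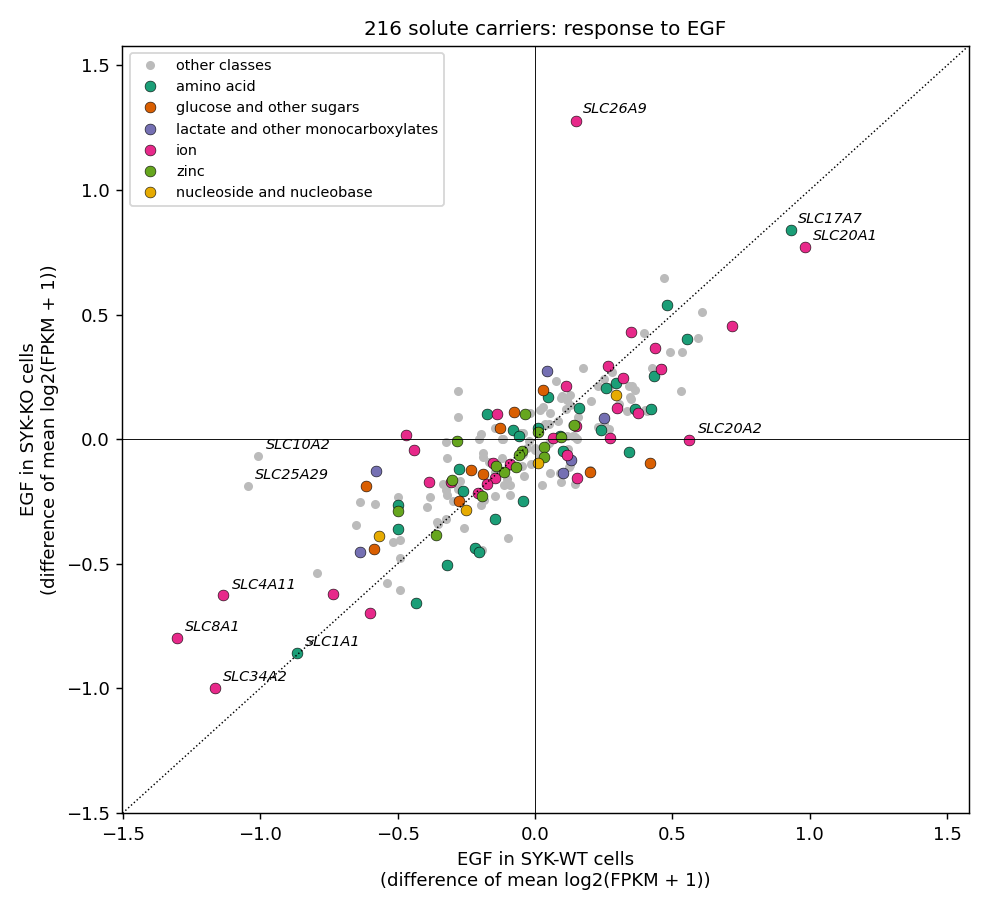
Response to EGF in SYK-KO cells (vertical axis) against the response in SYK-WT cells (horizontal axis) for the 216 members, as differences of mean log2(FPKM + 1), coloured by substrate class, with the line of equal responses dotted. SLC20A1 and SLC17A7 lie at the upper right and SLC34A2 at the lower left in both genotypes, while SLC26A9 lies above the line at 1.28 in SYK-KO cells.

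Whether a member answered EGF differently in the 2 genotypes was tested by the difference of the responses, SYK-KO minus SYK-WT. In limma 0 members were called, beside 0.00826% of all loci tested, and 21 members (9.72%) had an unadjusted p under 0.05, beside 8.83% of all loci. SLC26A9, which reached the expression limit through SYK-KO EGF libraries alone, had a difference of 1.13 ± 0.13. Among members not chosen in that way, the smallest adjusted p-values were those of SLC45A3 at -0.52 ± 0.10 (adjusted p = 0.288), SLC10A2 at 0.94 ± 0.20 (adjusted p = 0.288) and SLC25A29 at 0.86 ± 0.21 (adjusted p = 0.343). Leaving out either SYK-WT replicate gave calls, at a share of the members similar to that of all loci tested. A count of 0 therefore does not show that the responses were alike, and the larger number of EGF calls in SYK-WT cells than in SYK-KO cells is not by itself a difference between the genotypes.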

How the data were processed

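RNA-seq libraries of 8 samples in 4 groups of 2 were analysed, with groups and replicate numbers from the sample titles. FPKM per locus were made by the authors with TopHat, Cufflinks and Cuffdiff 2.2.1.3 on hg19, per the submitters' processing notes; no parameters, scaling or strand setting are stated there, so overlapping and antisense genes are uncertain. The q-values are those of the authors' deposited table. Symbols were found for 27541 loci (99.2%), 27222 from RefSeq and 319 from GENCODE. Another 8 expressed loci merge a carrier with a second gene and were left out, as were 6 non-coding SLC-named loci; SLC39A7, SLC44A4 and SLC25A6, which hg19 holds in more than 1 copy, are listed near 0 and were not analysed.

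Loci with at least 1 FPKM in 2 libraries were fitted as log2(FPKM + 1) with limma 3.58.1 in R 4.3.3 (trend, 4 group means, 4 residual and 3.87 prior degrees of freedom, Benjamini-Hochberg), tested on simulated data first. Tables and plots used python 3.11.15, pandas 2.3.3 and matplotlib 3.10.9. Relative depth came from the steps of low FPKM and holds only if libraries were scaled by their own fragments. Members and lists were chosen with earlier results of these data known. Genes were named by largest change, highest level or smallest adjusted p per comparison, class and list, with at most 6 per direction and 3 per class; SLC2A8, SLC8B1, SLC12A7, SLC23A1, SLC25A28, SLC26A2, SLC30A1, SLC35F1, SLC38A1, SLC25A39, SLC48A1, SLC52A2, BSG, CHAC1, GCLC and NEDD4 were named after their values were seen.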

Additional observations from a re-analysis of the deposited data

How the results depend on the processing

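Alternatives were a pseudocount of 0.1 or 0.5 FPKM, no filter or at least 1 FPKM in 4 libraries, equalised library medians, library quality weights, only the 2 groups compared, a replicate block and leaving out each library, where a lone library is assumed to vary like the other groups. No called difference of a named gene changed direction, and equalising medians moved the median of all loci by at most 0.0142. With only the 2 groups in the fit, 60 members were called for EGF in SYK-KO cells and 34 for EGF in SYK-WT cells, against 32 and 76, and with quality weights 68 and 46. Leaving out 1 library gave 7 to 68 members for EGF in SYK-KO cells, 32 to 107 for EGF in SYK-WT cells, 53 to 127 for SYK-KO against SYK-WT with EGF, 45 to 108 untreated, and 0 to 14 for the difference of the responses. The labels do not say that a replicate number marks a shared batch. Deviations of same-numbered libraries correlated at 0.161, 0.197 and 0.27 between SYK-WT, SYK-KO and SYK-KO EGF, and at -0.219, -0.161 and -0.381 between each of these, in that order, and SYK-WT EGF, so pairing by number was not established. With the replicate block 38, 82, 104, 95 and 0 members were called in the order EGF in SYK-KO, EGF in SYK-WT, SYK-KO against SYK-WT with EGF, untreated, and difference of the responses. With the numbers of SYK-WT EGF crossed, chosen after seeing the data, the counts were 31, 75, 100, 91 and 0. The cause of these shifts was not tested.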
